A study of Mus musculus with 4 samples.

Results

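Gm30873, Gm20139 and Gm36634 are 3 long noncoding RNAs (lncRNAs) of the mouse whose genes lie beside or within genes that were higher in myotubes treated with ectodysplasin A2 (EDA-A2), and Arnt2 is the protein-coding gene that hosts the first of them. These 4 genes, of 53647 in the count tables, were selected by name, and the selection rested on their counts in these same libraries, so their own differences between conditions are given as a description without a test. Tnfaip3 and Nfkbia, the coding neighbours of Gm20139 and Gm36634, are given in the same way. All 4 genes passed the filter on low counts that left 15173 genes for testing. The libraries came from wild-type primary myotubes, differentiated in horse serum medium from myoblasts of newborn mouse limb muscle. The 2 control libraries were of control myotubes, and the 2 EDA-A2 libraries were of myotubes given recombinant EDA-A2 at 250 ng/ml for 24 h. The study's methods say in general that sample numbers count biological replicates, but not whether the 2 libraries of a condition came from separate cultures or animals, so p-values measure only the spread between these libraries, which may be partly technical. A C57BL/6 background is given there for the adult mice and is not repeated for the pups that gave the myoblasts.

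EDA-A2 is a ligand of the tumour necrosis factor family, and its receptor EDA2R activates the transcription factor NF-κB, which binds the κB motif in DNA. Nfkbia encodes IκBα, the inhibitor that holds NF-κB in the cytoplasm, and Tnfaip3 encodes A20, a ubiquitin-editing enzyme that shuts the pathway off. Both are well-known NF-κB target genes and form negative feedback loops. Arnt2 encodes a transcription factor of the bHLH-PAS family, which pairs with partners such as the hypoxia-inducible factors and is best known in neurons. LncRNAs are transcribed and spliced like messenger RNAs but are not translated into a known protein, and many of them start from, or lie antisense to, a coding gene. No function of the 3 lncRNAs is assumed here.

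The genome sequence around the gene starts is shown because each lncRNA lies in a region with an NF-κB target gene or with a κB motif of its own. Coordinates are on GRCm39, sequences run 5′ to 3′ on the strand of the named gene, and capitals mark matches to the κB motif (GGG, a purine, any base, A or T, a pair of pyrimidines, and CC) on either strand. The window of Gm30873, chr7:83987145-83987444 on the plus strand, ends with its whole first exon of 195 bases. The window of Arnt2, chr7:84059741-84059890 on the minus strand, is the 150 bases before the gene start and holds no match. The window of Gm20139, chr10:18999575-18999694 on the plus strand, ends 300 bases before the gene start. The window of Nfkbia, chr12:55539413-55539712 on the minus strand, covers 280 bases before and 20 bases from the gene start.
Gm30873: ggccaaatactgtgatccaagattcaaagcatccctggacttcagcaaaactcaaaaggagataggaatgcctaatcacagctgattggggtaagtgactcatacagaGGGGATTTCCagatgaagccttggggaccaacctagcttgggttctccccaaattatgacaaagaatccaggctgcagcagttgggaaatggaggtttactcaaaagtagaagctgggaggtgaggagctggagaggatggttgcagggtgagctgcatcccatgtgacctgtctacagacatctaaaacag
Arnt2: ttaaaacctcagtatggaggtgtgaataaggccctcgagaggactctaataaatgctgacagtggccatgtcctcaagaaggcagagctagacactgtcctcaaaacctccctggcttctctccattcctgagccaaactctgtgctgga
Gm20139: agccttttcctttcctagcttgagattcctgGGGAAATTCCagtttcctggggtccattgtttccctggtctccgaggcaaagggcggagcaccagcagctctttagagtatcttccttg
Nfkbia: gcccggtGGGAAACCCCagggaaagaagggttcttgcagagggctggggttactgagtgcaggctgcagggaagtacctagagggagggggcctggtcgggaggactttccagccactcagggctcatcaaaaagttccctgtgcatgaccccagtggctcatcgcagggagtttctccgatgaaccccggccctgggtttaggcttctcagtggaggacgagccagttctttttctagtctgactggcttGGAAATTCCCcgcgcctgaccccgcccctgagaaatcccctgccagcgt

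Counting the first base of the gene as +1, the match of Gm30873 began at +4, inside its first exon. An AP-1 motif (TGANTCA, both strands) began at -10 of the same start and did not overlap it. Gm20139 held a κB match at -389 and none within 1000 bases before and 500 bases after the start of its canonical transcript. Nfkbia held κB matches at -29, -273 and -629. All 3 lie between the Nfkbia start and the nearest start that RefSeq gives Gm36634, since those opposite starts are 647 bases apart. From its own canonical start in GENCODE, Gm36634 held matches at +166 and +167, which overlap, and at +331. The canonical start of Tnfaip3 had a match at -97, within chr10:18891264-18891293, and one at +17, within chr10:18891151-18891180, both on the minus strand.
Tnfaip3 at -97: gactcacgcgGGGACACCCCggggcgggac
Tnfaip3 at +17: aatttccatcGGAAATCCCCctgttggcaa

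In the window from 250 bases before to 50 bases after the canonical start, 3.60% of 52606 genes and 4.03% of the 1216 lncRNAs tested held a κB match. Among the 22 lncRNAs called higher with EDA-A2 (1.81% of those tested, at an adjusted p under 0.05 in edgeR) it was 4, or 18.2%, and among the 346 coding genes called higher it was 14.7%, against 5.08% of all coding genes tested. The 4 lncRNAs were Gm30873, Gm48656, 2900057B20Rik and 4833438C02Rik. Without Gm30873, Gm20139 and Gm36634, it was 3 of 19 lncRNAs (15.8%). In the window of 1500 bases the shares were 27.3% of the 22 lncRNAs, 21.1% of those 19 and 20.1% of all lncRNAs tested. For coding genes they were 37.0% of those called higher and 20.8% of those tested. The AP-1 motif stood in 7.98% of all short windows, in 8.31% of those of the lncRNAs tested and in 3 (13.6%) of those of the 22 lncRNAs. For coding genes it was 6.94% of those called higher and 5.51% of those tested. The core of the interferon-stimulated response element stood in 4.42% of all short windows, 4.28% of those of the lncRNAs tested and 0 of the 22. For coding genes it was 5.78% of those called higher and 3.41% of those tested. A match describes the letters and not binding, and the starts themselves are uncertain: relative to the GENCODE start, RefSeq begins Gm30873 at -1207 and Gm20139 17502 bases downstream.

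Gm30873 was nearly silent in control myotubes and present in every EDA-A2 library. It had 5 and 10 read pairs in control replicates 1 and 2, and 211 and 166 in EDA-A2 replicates 1 and 2, so the conditions did not overlap and differed by far more than the replicates. Here and below, a lack of overlap only describes genes that were chosen on these counts. Its share over all 15173 genes tested was not counted. In normalised counts this was 7.62 ± 3.49 (SD, n = 2) against 185 ± 30.9, a log2 fold change of 4.57 with a standard error of 0.31. From the pooled counts of 15 and 377, the ratio was 24.3, with an exact 95% interval of 14.5 to 43.8 that covers counting error only. By log2 fold change it ranked 3 among the 15173 genes tested and 1 among the 1216 lncRNAs. In bulk RNA, more RNA per cell and more cells that hold the RNA cannot be told apart.

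Gm30873 (ENSMUSG00000109341) occupies chr7:83987250-83997079 on the plus strand, has 3 exons of 195, 46 and 1082 bases, and lies wholly inside Arnt2 in the opposite direction. Its start is 72490 bases from that of Arnt2, within the Arnt2 gene body. The third exon shares 214 bases, chr7:83996550-83996763, with an exon of an Arnt2 transcript on the other strand. The remaining exonic sequence of Gm30873 lies outside annotated Arnt2 exons.

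Arnt2 (ENSMUSG00000015709, chr7:83895483-84059740, minus strand) was also higher with EDA-A2, by a much smaller factor. Its counts were 277 and 338 in control and 527 and 527 in EDA-A2 libraries. Normalised, they were 313 ± 39.2 against 517 ± 0.963 (SD, n = 2), a log2 fold change of 0.72 with a standard error of 0.12. The conditions did not overlap, and the lowest EDA-A2 value was 1.52 times the highest control value.

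The counts of Gm30873 equalled 1.81% and 2.96% of those of Arnt2 without treatment and 40.0% and 31.5% after it. The log2 ratio of the lncRNA to its host thus differed by 3.94 between conditions, against a replicate SD of 0.40. Per kilobase of exon, which allows the genes to be compared, Gm30873 stood at 0.13 and 0.26 CPM (counts scaled to a common library size) and Arnt2 at 1.08 and 1.29 in control myotubes. With EDA-A2 the order turned, with Gm30873 at 5.28 and 4.17 and Arnt2 at 1.95 and 1.96 CPM per kilobase.

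**Figure D1:**
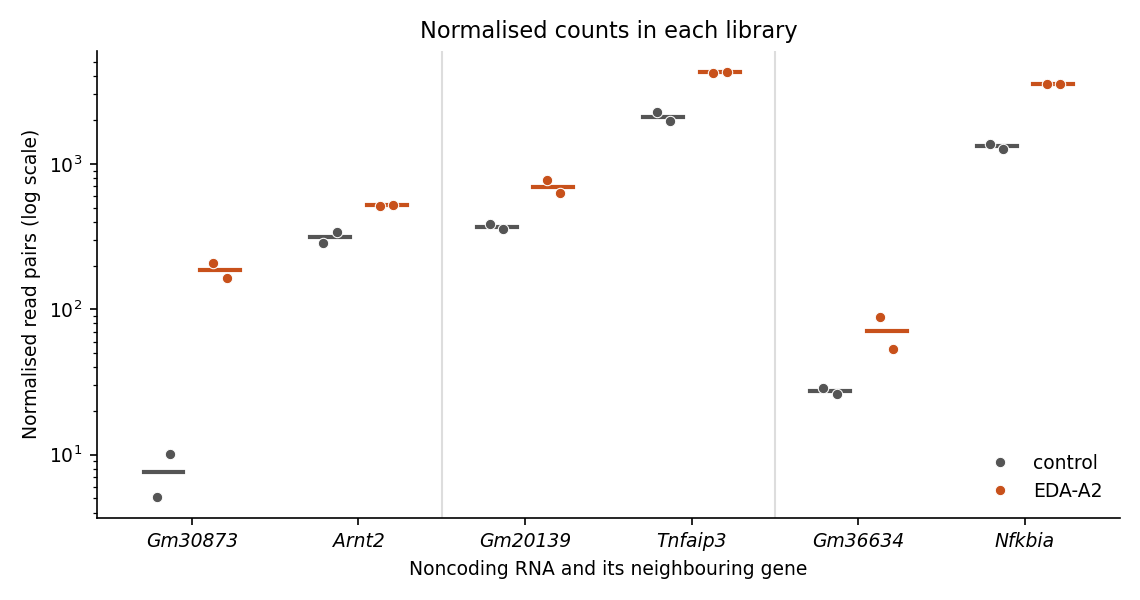
Normalised read pairs (log scale) of each lncRNA and its neighbouring coding gene, 1 point per library and a line at the mean of each condition. In every one of the 6 genes both EDA-A2 libraries lie above both control libraries, with the widest gap for Gm30873 (7.62 against 185 on average). The genes were chosen on these counts, and the share of all genes with this order was not counted.

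Gm20139 was the most counted of the lncRNAs and differed between conditions about as much as Tnfaip3, the gene beside it. Gm20139 had 374 and 351 counts in control and 785 and 637 in EDA-A2 libraries, or 370 ± 22.2 against 698 ± 101 normalised counts (SD, n = 2). The log2 fold change was 0.92 with a standard error of 0.12. For Tnfaip3 the counts were 2192 and 1950 against 4333 and 4358, with a log2 fold change of 1.01 and a standard error of 0.08. Neither gene's conditions overlapped.

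Relative to Tnfaip3, Gm20139 made up 17.1% and 18.0% of its counts in control and 18.1% and 14.6% in EDA-A2 libraries. The log2 ratio differed by -0.11 with a replicate SD of 0.16, so a difference between conditions in this ratio was not detectable, and the values of the 2 conditions overlapped. Gm20139 (ENSMUSG00000111052) spans chr10:18999995-19201565 on the plus strand and Tnfaip3 (ENSMUSG00000019850) spans chr10:18874201-18891405 on the minus strand. Their starts are 108590 bases apart and point away from each other, and they share no exonic base. Gm20139 has 44 annotated transcripts over 30 exon blocks, which makes its level per length uncertain. Over all its exons (13167 bases) it stood at 0.99 and 0.91 CPM per kilobase in control libraries, below Tnfaip3 at 7.86 and 6.84. Over its canonical transcript of 497 bases the figures were 26.2 and 24.1, above Tnfaip3 at 11.0 and 9.62.

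Gm36634 had low counts and was also higher with EDA-A2. It had 28 and 26 counts in control and 91 and 54 in EDA-A2 libraries, or 27.5 ± 1.86 against 71.1 ± 25.5 normalised counts (SD, n = 2). The log2 fold change was 1.37 with a standard error of 0.31, and the exact 95% interval of the pooled ratio, 1.88 to 3.60, covers counting error only. The conditions did not overlap, but the 2 EDA-A2 libraries stood far apart. Nfkbia, by contrast, had tight replicates, with 1331 and 1260 counts against 3622 and 3620, a log2 fold change of 1.43 and a standard error of 0.07.

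Gm36634 was 2.10% and 2.06% of Nfkbia in control and 2.51% and 1.49% in EDA-A2 libraries. The log2 ratio differed by -0.11 with a replicate SD of 0.38, and the EDA-A2 values lay on both sides of the control values. GENCODE starts Gm36634 (ENSMUSG00000112348, chr12:55538297-55604698, plus strand) 1135 bases inside Nfkbia (ENSMUSG00000021025, chr12:55535332-55539432, minus strand). The first exon block of Gm36634 shares 141 bases, chr12:55538455-55538595, with an exon of Nfkbia on the other strand. Over all exons Gm36634 stood at 0.26 and 0.24 CPM per kilobase and Nfkbia at 23.9 and 22.2 in control libraries.

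**Figure D2:**
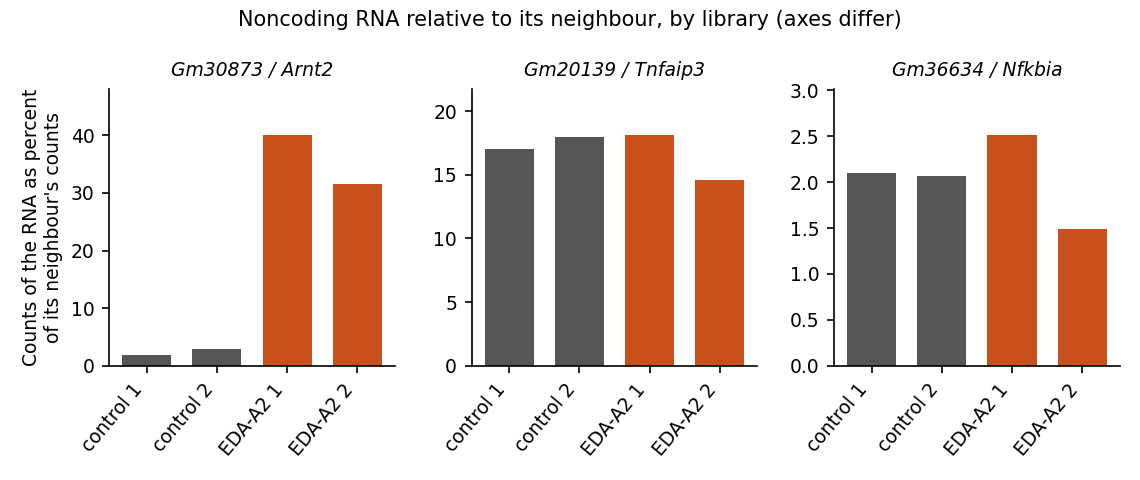
Counts of each lncRNA as a percentage of the counts of its neighbour, 1 bar per library, with a separate linear axis from 0 for each pair. Gm30873 went from 1.81% and 2.96% of Arnt2 to 40.0% and 31.5%, whereas Gm20139 (14.6% to 18.1% of Tnfaip3) and Gm36634 (1.49% to 2.51% of Nfkbia) kept overlapping values.

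Reads from 2 overlapping genes on opposite strands can be told apart only if strand was used in counting. The library kit kept strand, but the strand option of the counting is not given in the sources used here. If reads were spread evenly over exons, 5.68% of them would fall on exonic bases shared with a gene of the other strand and 1.05% on bases shared with a gene of the same strand. The pairs set aside as ambiguous between genes were 0.946% to 0.986% of all pairs. The part of reads from the opposite strand was not tested. This holds for the 214 and 141 shared bases and for other lncRNA exon bases that lie inside Arnt2 or Nfkbia.

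In all 3 lncRNAs the first EDA-A2 library stood above the second, with 207 against 163 normalised counts for Gm30873, 769 against 626 for Gm20139 and 89.2 against 53.1 for Gm36634. Their coding neighbours did not show this, with 517 against 518 for Arnt2, 4247 against 4283 for Tnfaip3 and 3550 against 3558 for Nfkbia. The same library had the largest share of pairs outside annotated genes, 7.40% against 6.68% to 6.84% in the others, and 27398 counts of the nuclear lncRNA Malat1 against 14885 in the second EDA-A2 library. Over all 1216 lncRNAs tested, the median log2 ratio of the first to the second EDA-A2 library was 0.12, against -0.01 for the 13065 coding genes. In control libraries these medians were 0.09 and -0.01. Without EDA-A2 replicate 1, the log2 fold changes were 4.39 for Gm30873, 0.76 for Gm20139 and 0.94 for Gm36634. The part of this library difference in the results was not tested beyond that.

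As for the libraries as a whole, between 29444155 and 29746863 read pairs fell on genes in each. Of the 15173 genes tested, 371 (2.45%) were called higher with EDA-A2 and 323 (2.13%) lower, where a call is an adjusted p (Benjamini-Hochberg) under 0.05 in the quasi-likelihood test of edgeR. Scaling by total counts alone moved this split to 485 and 194, and with either control library left out 0 genes were called in either direction. Of the 1216 lncRNAs tested, 22 (1.81%) were called higher and 9 (0.74%) lower, and their median standard error of 0.32 was larger than the 0.10 of all genes. The median log2 fold change was 0.02 for the lncRNAs and -0.00208 for all genes. All 8 myotube markers were expressed, and 3 of them (Acta1, Myh3 and Actn2) were called lower, with summed levels of 18938 to 19727 CPM in control and 14052 to 14321 CPM in EDA-A2 libraries. Of 4 neuron and glia markers, Rbfox3 and Sox10 were at 0 in every library and Tubb3 was called higher, with summed levels of 50.2 to 55.8 and 69.1 to 74.6 CPM. Macrophage markers stayed between 2.09 and 3.01 CPM in sum. Markers of dividing cells (Mki67 and Top2a) summed to 560 to 663 CPM over the libraries. Fibroblast markers summed to 173 to 324 CPM, with Lum and Thy1 at 0, and the myoblast markers Pax7 and Myf5 to 40.8 to 47.5 CPM. No marker of these last groups was called. Apart from Lum and Thy1, the markers of dividing cells, fibroblasts and myoblasts were counted in every library. Which cells carried this RNA was not tested. The part of these markers in the values of Arnt2 and the lncRNAs was not tested.

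Within 500 kb, 75 other genes were in the tables, 36 of them at 0 in every library, and 24 were tested. Of these, 1 was called higher and 0 lower by edgeR, beside 2.45% and 2.13% of all genes tested. A count of 1 in 24 is too small to set these regions apart from all genes. In all, 3 were higher and 0 lower at an unadjusted p under 0.05. DESeq2 also called 1 higher and 0 lower. The median log2 fold change of the 24 was 0.06, beside -0.00208 over all genes tested.

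The gene called higher was Ifngr1, which encodes the ligand-binding chain of the interferon gamma receptor and lies 266 kb beyond the end of Gm20139. Its counts were 1055 and 1066 in control and 1736 and 1899 in EDA-A2 libraries, which is 0.72 higher on the log2 scale (standard error 0.08, adjusted p = 5.73e-05 in edgeR). Between Gm20139 and Ifngr1, the transcription factor gene Olig3 had 16, 10, 19 and 8 counts and a log2 fold change of -0.00105 with a standard error of 0.50, so little could be detected there. On the other side, Perp, a desmosome gene, had a log2 fold change of 0.58 and did not pass (standard error 0.21, adjusted p = 0.163 in edgeR), and Arfgef3 had 0.04 with a standard error of 0.19.

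Around Arnt2 and Gm30873, 0 of 10 tested genes were called in edgeR in either direction, with 0 at an unadjusted p under 0.05 and 0 by DESeq2. At the 2.45% and 2.13% of all genes, less than 1 call among 10 genes would be seen, so the count of 0 does not distinguish the region. Gm26708, an lncRNA that overlaps the Arnt2 gene span, had 36 and 57 against 71 and 54 counts, a log2 fold change of 0.37 with a standard error of 0.28. Abhd17c, a depalmitoylating enzyme gene, had 0.01, Ctxnd1 had -0.17, the hyaluronan-binding protein gene Cemip had -0.19, Fah, an enzyme of tyrosine breakdown, had -0.11, and Zfand6 had -0.03 on the log2 scale. None of these 6 passed.

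Around Gm36634 and Nfkbia, 0 of 10 were called by edgeR or DESeq2, and 1 (Baz1a) was higher at an unadjusted p under 0.05. The proteasome subunit gene Psma6, 71.2 kb from Gm36634, had 3800, 3741, 4098 and 4327 counts and a log2 fold change of 0.11 with a standard error of 0.07. Ralgapa1, on the far side at 45.0 kb, had -0.03 with a standard error of 0.07. The other nearest genes were Prorp at 0.21, Ppp2r3c at 0.08, Srp54c at 0.18 and the pseudogene Gm49376 at 0.60 with a standard error of 0.38.

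**Figure D3:**
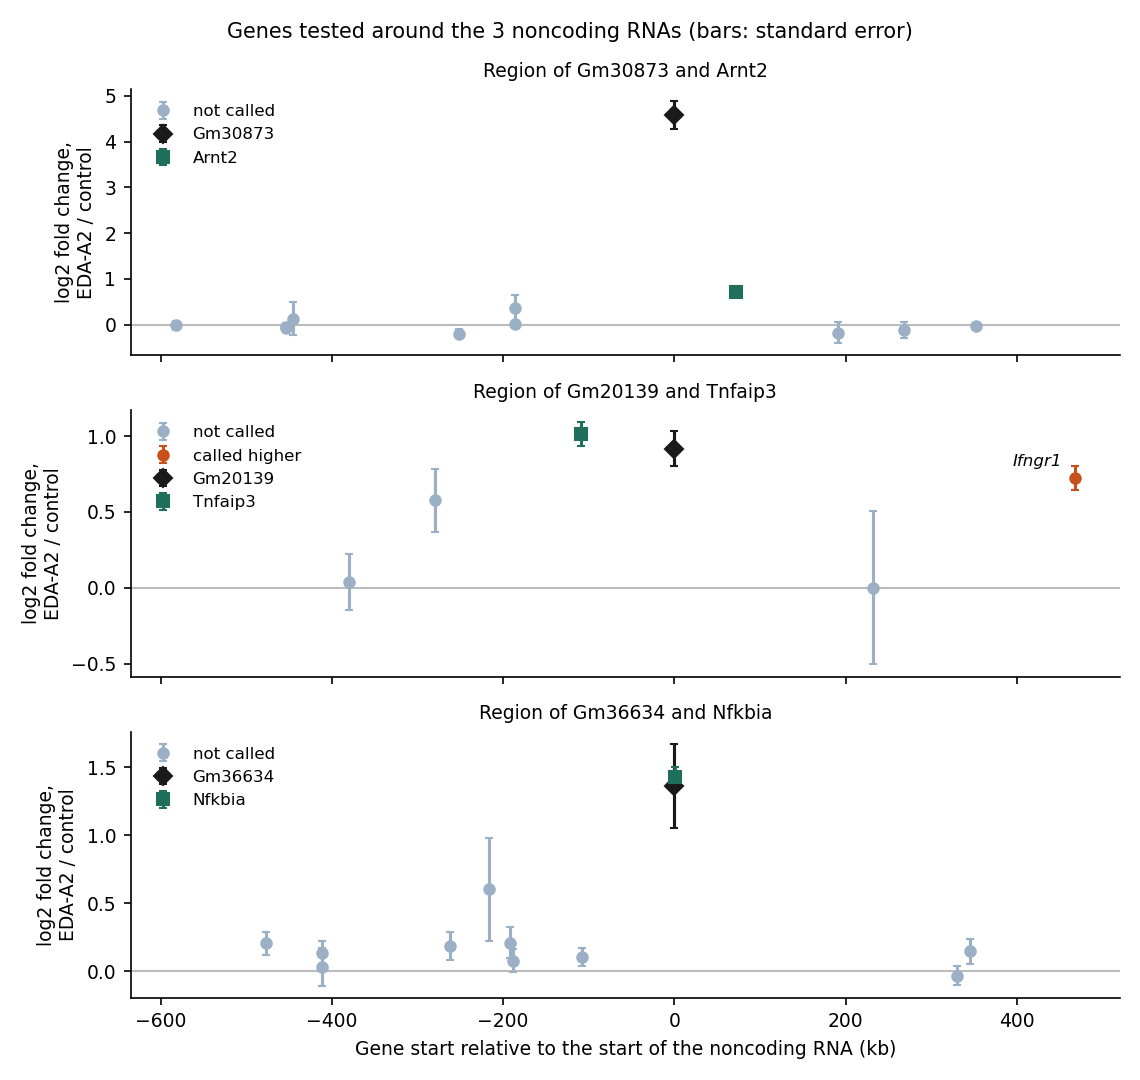
Log2 fold change (EDA-A2 over control, bars are standard errors) of every tested gene within 500 kb, against the distance of its start from that of the lncRNA in kilobases, 1 panel per region with its own vertical axis. Among the other 24 genes only Ifngr1 was called higher, at 0.72, while the lncRNAs and their neighbours lie at 0.72 to 4.57.

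To see how these genes compare with other lncRNAs beside genes that were higher with EDA-A2, all tested lncRNAs whose start lay within 100 kb of that of a coding gene called higher were taken. There were 83, of which 7 (8.43%) were called higher and 0 lower by edgeR, beside 15 of the other 1133 (1.32%) and the 1.81% of all lncRNAs. At an unadjusted p under 0.05, 13 were higher and 1 was lower. Gm30873 and Gm36634 are among the 7, and without them 5 of 81 (6.17%) were called higher. The median log2 fold change of the 83 was 0.09, against 0.01 for the other lncRNAs. Of 90 lncRNAs within 100 kb of a coding gene called lower, 0 were called higher and 4 lower by edgeR, with 1 higher and 15 lower at an unadjusted p under 0.05 and 0 higher and 3 lower by DESeq2. The lncRNA and its neighbour were measured in the same libraries, and the difference between these shares was not tested. Gm20139 is not among the 83, because its start is 108590 bases from that of Tnfaip3. It enters when the distance is 250 kb, where 12 of 163 lncRNAs were called higher.

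The other 5 lncRNAs called higher had neighbours of several kinds. 4833438C02Rik starts 1834 bases from Nfkb2, the gene of the NF-κB subunit p100/p52, on the opposite strand and shares 1081 exonic bases with it. It had 70 and 87 against 182 and 154 counts and rose by 1.04 (standard error 0.19, adjusted p = 0.00412 in edgeR), while Nfkb2 rose by 1.89 on the log2 scale. The strand option of the counting is not given, and the part of Nfkb2 reads in the counts of 4833438C02Rik was not tested. A330074K22Rik, 121 bases from Gse1, rose by 0.63 (standard error 0.10, adjusted p = 0.00144 in edgeR), from 487 and 547 to 781 and 880 counts. 2310001H17Rik, near the lectin gene Clec2d, rose by 0.94 (standard error 0.16) from 134 and 111 to 253 and 235 counts. Gm12688, near the glycosylation gene Alg6, had 5 and 11 against 31 and 23 counts and a log2 fold change of 1.69 (standard error 0.45) that barely passed (adjusted p = 0.0486 in edgeR). It lost the call in 6 of 9 alternatives, namely DESeq2, no filter and each library left out, and its value ranged from 1.25 to 2.34 over the 9. Gm36356, near the phosphatase gene Ptpre, had 0 and 1 against 11 and 14 counts. Its pooled ratio was 24.3 with an exact 95% interval of 3.98 to 999 from counting error. It lost the call under DESeq2 and without the filter, and its log2 fold change ranged from 3.45 to 6.64 over 8 alternatives.

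The lncRNA changed more than its neighbour in some of these pairs and less in others. Gm30873 (4.57 against 0.72 for Arnt2) and Gm36356 stood far above their neighbours, and 4833438C02Rik (1.04 against 1.89 for Nfkb2) below. Of the 76 that were not called, the nearest to their neighbours were 4930426L09Rik, 10 bases from Pip4k2a with a log2 fold change of -0.05, Gm45418, 47 bases from Ddx60 with 0.45, Gm33023, 79 bases from Cdh16 with 0.09, Gm20544, 81 bases from Smad7 with 0.38, and 3110045C21Rik, 102 bases from Hsd17b7 with -0.01. Of these 83 lncRNAs, DESeq2 called 4 higher, the fit in which every library had to hold 10 counts, which drops Gm30873, called 4, the fit without a filter called 1 (Gm30873), and leaving out either EDA-A2 library left 5 and either control library 0. The minimum of 10 counts in every library also drops Gm12688 and Gm36356. Gm30873 is among the 4 of DESeq2 and Gm36634 is not. Both were chosen on these same libraries, so calls that fall on them, such as the 1 without a filter, are no evidence of a change.

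**Figure D4:**
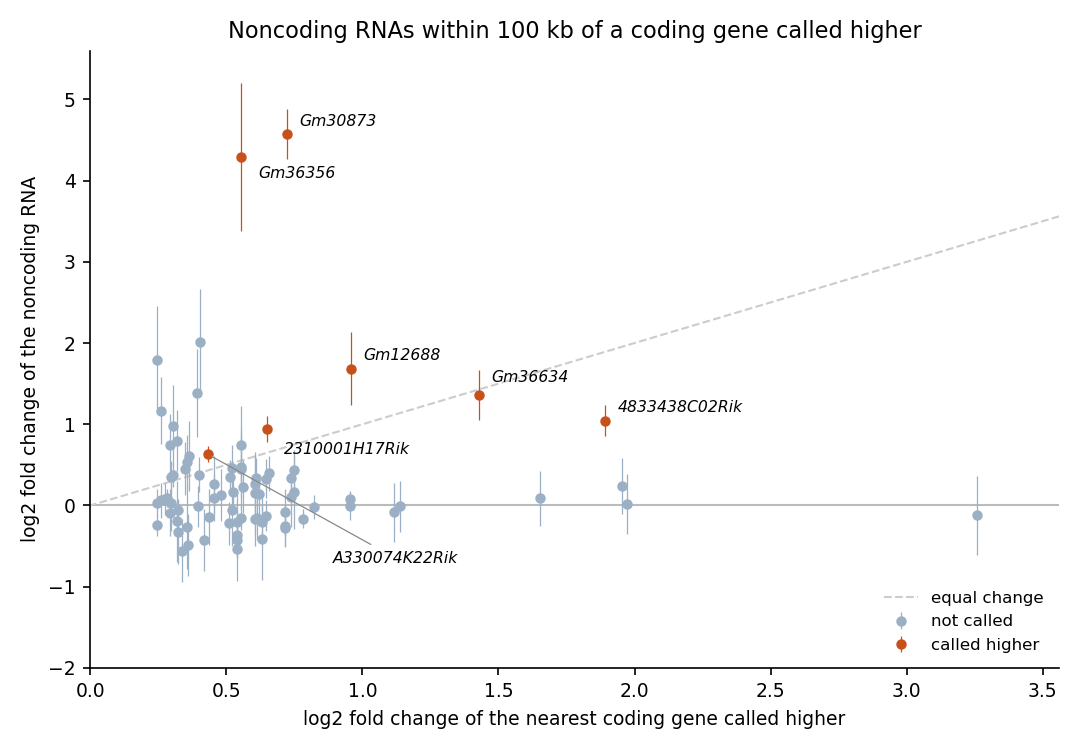
Log2 fold change of each lncRNA (bars are standard errors) against that of its nearest coding gene called higher, for lncRNAs within 100 kb. The 2 lncRNAs beside Spib, which had no count in control libraries, are not drawn, and the value of Gm36356 rests on 1 control count. The dashed line marks equal change: Gm30873 lies far above it at 4.57 against 0.72, Gm36634 near it at 1.37 against 1.43.

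Of 16 other bHLH-PAS genes tested, the family of Arnt2, 0 were called in either direction by edgeR, beside 2.45% of all genes called higher and 2.13% lower, which is less than 1 gene in a list of this size, with 1 higher and 0 lower at an unadjusted p under 0.05 and 0 by DESeq2, and their median log2 fold change was -0.06. Arnt, the close relative of Arnt2, had 2758, 2849, 2933 and 2905 counts and a log2 fold change of 0.00386 with a standard error of 0.07. Npas3 had 0.65 (standard error 0.25, adjusted p = 0.195 in edgeR). The clock genes Bmal1, Bmal2 and Clock had -0.17, 0.22 and -0.10, and the coactivator gene Ncoa3 had -0.13.

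ARNT proteins form dimers with the hypoxia-inducible factors and the aryl hydrocarbon receptor. Of 18 known targets of these dimers, 0 were called by edgeR or DESeq2, which is again near the 2.45% and 2.13% of all genes, with 0 higher and 1 lower at an unadjusted p under 0.05, and the median log2 fold change was -0.06. Nqo1 had -0.27 (standard error 0.10, adjusted p = 0.163 in edgeR) and Cyp1b1 had 0.17 (standard error 0.08, adjusted p = 0.328 in edgeR). Egln1 had -0.16, Ldha had -0.14 and Ddit4 had 0.11.

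Of 11 tested lncRNAs known from inflammatory or stress signalling, 0 passed in either direction in edgeR or in DESeq2, near the 1.81% called higher and 0.74% lower among all lncRNAs, 0 had an unadjusted p under 0.05, and the median was -0.07. The imprinted lncRNA Meg3 had -0.39 (standard error 0.18, adjusted p = 0.326 in edgeR), Mir22hg -0.48, Snhg15 -0.18, Ptgs2os, which lies beside Ptgs2, 0.35, and Malat1 0.19 with a standard error of 0.17. The 2 EDA-A2 libraries differed more in Malat1, at 27398 and 14885 counts, than the control libraries did, at 18107 and 17610.

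Other genes of the pathway that Tnfaip3 and Nfkbia belong to were called higher. Of 18 other genes of NF-κB and its feedback, 9 were called higher and 0 lower by edgeR, with 14 higher and 0 lower at an unadjusted p under 0.05 and 9 higher and 0 lower by DESeq2, against the 2.45% and 2.13% of all genes, and the median log2 fold change was 0.32. The 9 were Birc3, Cyld, Nfkb2, Nfkbie, Relb, Tnip1, Traf1, Traf2 and Traf3. Nfkbie, the gene of IκBε, went from 133 and 162 to 1309 and 1412 counts, a log2 fold change of 3.15 with a standard error of 0.11. Birc3, the gene of the ubiquitin ligase cIAP2, went from 4 and 3 to 69 and 54 counts, a log2 fold change of 4.03 with a standard error of 0.43. Birc3 and Traf1 (5 and 7 against 39 and 52 counts) passed the filter only through their EDA-A2 counts. A stricter filter, with a minimum of 10 for each library, drops both, and 7 of the list were then called higher. Without a filter 7 were also called higher, with Birc3 among them and Traf1 not. Tnip1, whose protein binds A20, had 1.10 and Cyld, a deubiquitinase gene, had 0.34. Rela had 0.30 and did not pass (adjusted p = 0.0570 in edgeR), but was called with total counts (adjusted p = 0.0305) and with the replicate block (adjusted p = 0.0241). This list was drawn up with results of these libraries known, so its direction is no independent evidence.

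By profile over the 4 libraries, measured as the Euclidean distance of centred log2 CPM, the tested genes nearest to Gm30873 were Spib, Birc3 and Nfkbie, at distances of 1.06 to 1.27. Spib, an ETS transcription factor gene, had 0 and 0 counts in control and 19 and 26 in EDA-A2 libraries. The nearest to Arnt2 were the intermediate filament gene Synm (293, 359, 560 and 547 counts), the sphingosine phosphate receptor gene S1pr1 and the chemerin receptor gene Cmklr2, at distances of 0.03 to 0.06. Nearest to Gm20139 were the lncRNA Gm49774 (125, 118, 273 and 212 counts), Lrrc69 and the transporter gene Slco1a5, at 0.05 to 0.06. Nearest to Gm36634 were the pseudogene Gm28802, the collagen gene Col19a1 (63, 54, 151 and 99 counts) and Gm43667, at 0.27 to 0.31. With 4 libraries and 2 conditions, such likeness describes the order of the libraries and little more.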

How the data were processed

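RNA of 2 control and 2 EDA-A2 myotube samples was sequenced as paired reads after a stranded mRNA library preparation. The authors trimmed the reads with Trim Galore 0.6.5, mapped them to GRCm39 with STAR 2.7.3a, counted them per gene with HTSeq 0.11.1, and deposited unnormalised, unfiltered counts of read pairs for each Ensembl gene in a separate table for each library. The annotation release and the strand option are not given in the sources used here.

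The 5 summary lines of HTSeq were left out. Between 29444155 and 29746863 read pairs per library fell on genes, so a count of 3, the limit that a count of 0 allows, is 0.101 to 0.102 CPM. Intervals cover counting error only. The test was the quasi-likelihood test of edgeR 4.0.16 under R 4.3.3, after TMM scaling and filterByExpr (counts of at least 10, totals of at least 15), with a call at a Benjamini-Hochberg adjusted p under 0.05. Normalised counts are CPM scaled to the mean effective library size. DESeq2 1.42.0, other scalings and filters, a replicate block, each library left out, and other distances were alternatives. The scripts were tested on simulated counts.

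Gene models and positions come from GENCODE vM39 (52610 of 53647 genes matched), and RefSeq starts (GRCm38.p6) were located in GRCm39 by exact match of 300 bases, found for all 6 genes. Motifs were sought on both strands; the printed sequences were read from GRCm39. The members and all gene lists were chosen with earlier results of these data known. Genes were named by rule: the members and neighbours, genes called within 500 kb and up to 6 uncalled nearest each member, called genes of each list and up to 5 others by smallest p, lncRNAs called within 100 kb and the 5 uncalled ones nearest, and the 3 genes nearest each member in profile. Arnt, Baz1a, Neat1, Gm48656 and 2900057B20Rik were named after their values were seen.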

Additional observations from a re-analysis of the deposited data

Results flagged for a closer look

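The share of read pairs outside annotated genes, which no comparison used, was above both control libraries (6.68% each) in EDA-A2 replicate 1 (7.40%) and in EDA-A2 replicate 2 (6.84%). The library with the larger share was also the one with the higher counts of Gm30873, Gm20139 and Gm36634 among the EDA-A2 libraries. The tables do not say where these pairs fell, and whether unannotated transcripts of the 3 regions are among them was not tested.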

How the results depend on the processing

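The log2 fold changes of the 4 genes and of Tnfaip3 and Nfkbia were positive under every alternative run, at 4.57 to 4.63 for Gm30873, 0.72 to 0.78 for Arnt2, 0.91 to 0.97 for Gm20139 and 1.34 to 1.42 for Gm36634 over other scalings, filters, the block and DESeq2, and Nfkbia reached 1.48 with total counts. Leaving out each library in turn gave 4.18 to 5.13 for Gm30873, 0.60 to 0.86 for Arnt2, 0.76 to 1.06 for Gm20139, 0.94 to 1.69 for Gm36634, 0.918 to 1.119 for Tnfaip3 and 1.37 to 1.49 for Nfkbia. The difference in log2 fold change ranged from 3.58 to 4.28 for Gm30873 minus Arnt2, from -0.26 to 0.0499 for Gm20139 minus Tnfaip3 and from -0.49 to 0.27 for Gm36634 minus Nfkbia, both positive only without EDA-A2 replicate 2.

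Counts of calls moved more. Without the filter, 64 genes were called higher and 22 lower, with 2 lncRNAs higher and 1 lower. The count of lncRNAs near coding genes called higher was 7; where the coding genes were also called anew under each alternative, it was 0 without the filter, 3 under DESeq2 and 4 with the minimum of 10 counts everywhere. Total counts gave 194 genes and 5 lncRNAs lower. DESeq2 called 11 lncRNAs higher. At 50 kb 3 lncRNAs near genes called higher were called and at 250 kb 12, and 0 genes were called around the 4 within 250 kb. With the replicate number as a block, 537 genes were called higher and 529 lower, 14 lncRNAs lower, and Nqo1 as the 1 hypoxia or dioxin target lower. The numbers were not taken to pair the samples, since only 2 pairs exist and deviations of same-numbered libraries correlated at 0.06 over the genes tested. Among lncRNAs, however, replicate 1 stood above replicate 2 in both conditions, with median log2 ratios of 0.09 in control and 0.12 in EDA-A2 libraries. Whether the samples are paired was not tested.

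Each fit with 1 library left out has 1 residual degree of freedom and assumes that the lone sample varies like the other group. Without either control library 0 genes were called, so the ranges were 0 to 238 genes higher, 0 to 170 lower, 0 to 16 lncRNAs higher, 0 to 9 lower, 0 to 4 near genes called anew as higher, 0 to 1 around the 4, and 0 to 9 of the NF-κB feedback genes. Of the inflammatory lncRNAs 0 to 1 were called higher (Malat1 without EDA-A2 replicate 2) and 0 to 1 lower (Neat1 without EDA-A2 replicate 1). Over all alternatives, 103 values of single genes named in the text kept their call, 42 lost it and 0 reversed. With 5 and 10 control counts, Gm30873's level without treatment is imprecise, and ratios for lncRNAs with fewer, such as Gm36356, more so.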
